A study of Homo sapiens with 6 samples.

Results

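Among the 16305 genes listed for Huh7-R cells, the 48 genes described here encode the proteins that license replication origins, unwind DNA and copy it. They were chosen by gene symbol, with earlier results of these data known, and all 48 were found. Huh7-R (Huh7SR in the labels) is a sorafenib-resistant pool derived from the human hepatocellular carcinoma line Huh7 and kept in medium with sorafenib. For 24 h, 3 samples received 2 µM fostamatinib, an inhibitor of spleen tyrosine kinase (SYK). The other 3 received DMSO, the solvent used as the vehicle, for which the labels also write 2 µM. The study did not detect SYK protein in Huh7 cells and proposes that the drug acts through other targets. All 6 samples come from resistant cells, with sorafenib withdrawn from the medium for several days before the experiments, and parental cells are not part of the comparison. RNA was selected for polyadenylated transcripts and sequenced, with 13303451 to 15272737 reads per sample on the listed genes. Treatments were applied in triplicate, but whether the 3 samples of a group came from separate passages of the cells is not stated, so the p-values measure the spread between these samples, which may be technical. The markers of the labelled cell type were present: all 11 hepatocyte and hepatoma markers had reads in every sample, with 25715 to 34288 for AFP and 8568 to 11313 for ALB, whereas 3 of 8 markers of leukocytes, endothelium and fibroblasts were listed, at 10 to 141 reads. Not all 11 were high: with DMSO, APOA1 had 20, 22 and 23 reads and APOA2 17, 25 and 21, within that same range. The 11 markers were all higher after fostamatinib (median log2 fold change 0.55, largest 3.19 for APOA1). Their part in the results given here was not tested.

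Before a cell copies its DNA, the origin recognition complex (ORC) sits on origins and, with CDC6 and CDT1, loads the ring-shaped MCM2-MCM7 helicase. Geminin (GMNN) blocks CDT1 once S phase has begun, so that each origin fires a single time per cycle. The kinase pair CDC7-DBF4 then helps to recruit CDC45 and the GINS complex, which together with the MCM ring form the active helicase, called CMG. Polymerase alpha and primase start each new strand, the clamp loader RFC places the sliding clamp PCNA, polymerases delta and epsilon extend the strands, and FEN1 and LIG1 process and join the lagging strand pieces. RPA coats single-stranded DNA, and claspin, TIMELESS and TIPIN keep the fork coupled to checkpoint signalling. Many of these genes are known targets of E2F transcription factors, which are held back by pocket proteins until cyclin-dependent kinases act in late G1.

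Replication genes were broadly lower after fostamatinib. In limma's test with Benjamini-Hochberg adjustment over all 16305 genes, 41 of the 48 genes fell and 0 rose at an adjusted p-value under 0.05, and 0 were higher at an unadjusted p under 0.05 as well as in limma-voom. Across all genes tested, 24.5% were called lower and 23.3% higher, 47.8% in either direction. The median log2 fold change was -0.64 over the 48 genes, or 64.2% of the DMSO level, against 0.0015 over all genes. More than 2-fold falls were found for 11 of the 48, against 3.29% of all genes. The reads of every fostamatinib sample, scaled to library size, lay below those of every DMSO sample for 41 of the 48, against 27.4% of all genes. Of the 48 genes, 14 lay in the lowest 5% of all log2 fold changes (at or below -0.91) and 25 in the lowest 10% (at or below -0.60). Summed over the 48 genes, the level was 3045 ± 13.7 CPM (reads scaled to library size) with DMSO (SD, n = 3) and 1955 ± 14.5 CPM with fostamatinib (SD, n = 3). None of the 48 rested on few reads, the lowest count in any sample being 43 for GINS3. In bulk RNA, fewer cells in S phase and less of each transcript per cell cannot be told apart.

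**Figure D1:**
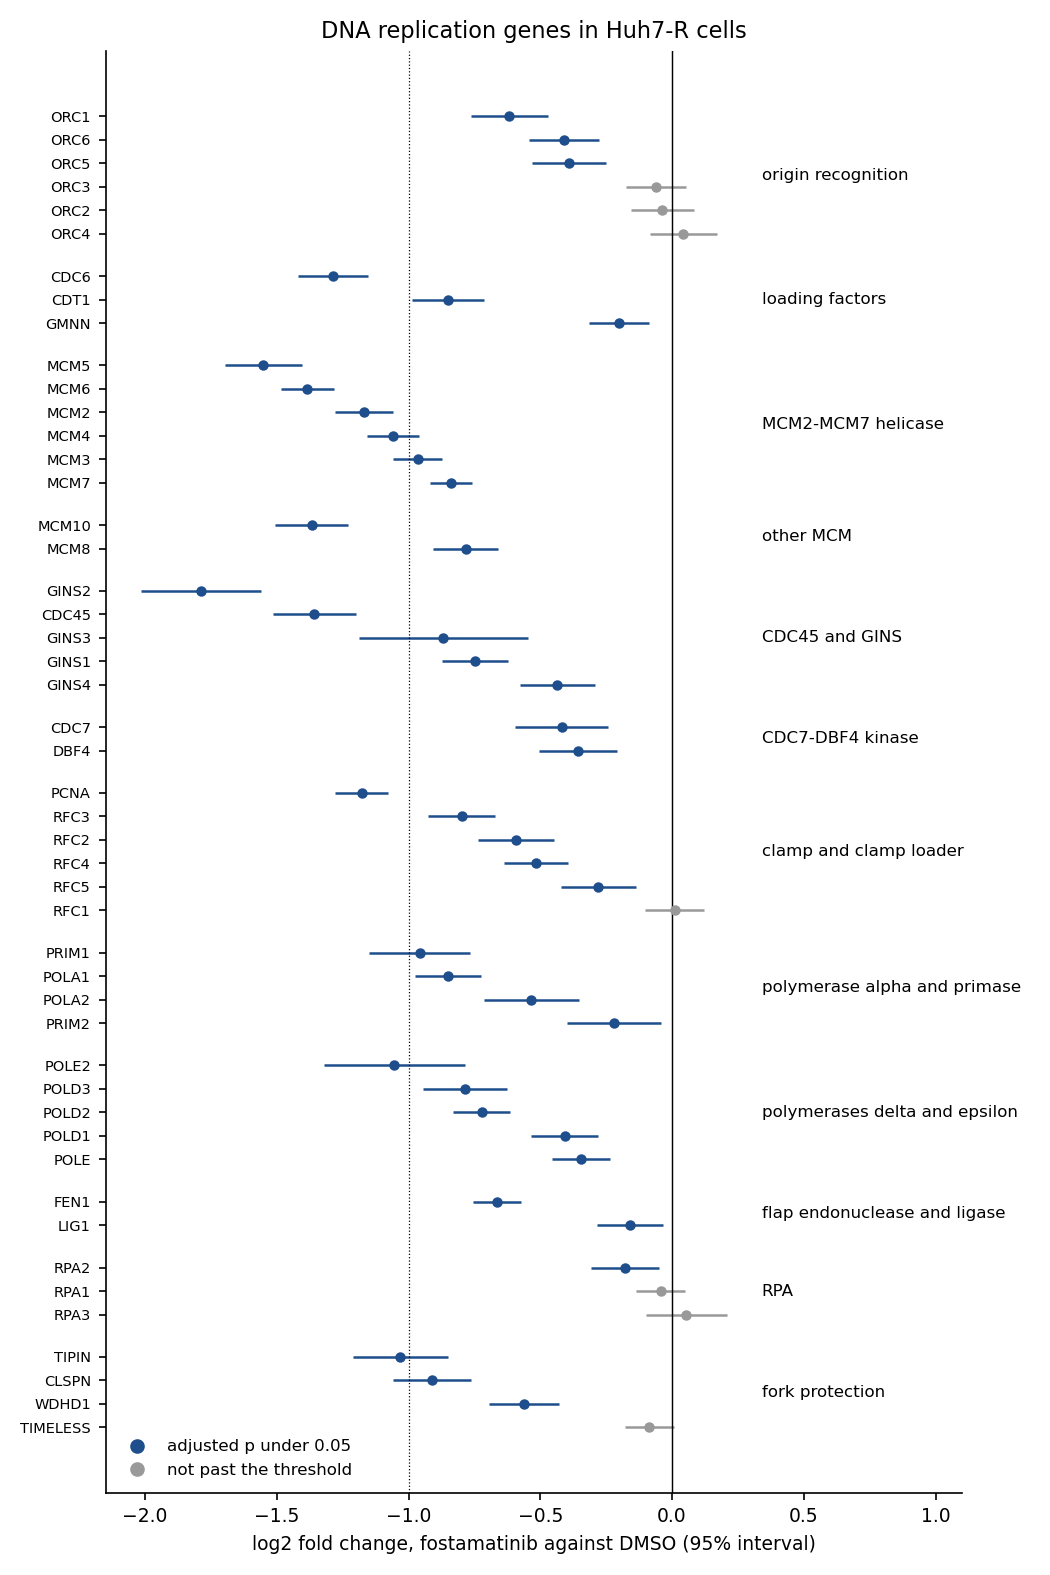
Log2 fold change of the 48 replication genes between fostamatinib and DMSO samples (x axis, points, with 95% intervals from limma), grouped by the complex or step they belong to (y axis, genes). The dotted line marks a 2-fold fall; 41 genes lie to the left of 0 with an adjusted p-value under 0.05, and the 7 grey genes did not pass that threshold.

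The promoters of these genes were read because the genes moved together and because E2F binding is described for many of them. RefSeq promoter windows (build GRCh38.p14, 250 bases before to 50 after a transcription start) were held for 42 of the 48 genes, 53 windows in all, and not for MCM4, MCM5, GINS4, POLD3, RPA2 and RPA3. The letters searched on both strands were TTTCCCGC, TTTCGCGC, TTTGCCGC and TTTGGCGC, the forms of the E2F consensus. At least 1 of them was found in 22 of the 53 windows (41.5%), against 4.74% of the 15211 windows of genes tested and 3.31% of all 35116 windows. The CCAAT box, bound by the factor NF-Y, was in 54.7% of the 53 windows and in 34.7% of those of genes tested, and TTTGAA, the core of the cell cycle homology region of G2/M promoters, in 1.89% and 10.9%. The median GC content was 64.7% in the 53 windows and 64.3% in the windows of genes tested. These shares are properties of the list of genes and would be the same whatever the treatment did. Shown are the window of GINS2, the gene with the largest fall, that of CDC6, the loading factor with the largest fall, that of MCM6, the helicase gene with the largest fall among those with a window, and that of RFC1, a gene that was not called and has none of these letters. Each is written 5′ to 3′ along the strand of the gene, with E2F letters in capitals.
GINS2 (chr16:85688905-85689204, - strand): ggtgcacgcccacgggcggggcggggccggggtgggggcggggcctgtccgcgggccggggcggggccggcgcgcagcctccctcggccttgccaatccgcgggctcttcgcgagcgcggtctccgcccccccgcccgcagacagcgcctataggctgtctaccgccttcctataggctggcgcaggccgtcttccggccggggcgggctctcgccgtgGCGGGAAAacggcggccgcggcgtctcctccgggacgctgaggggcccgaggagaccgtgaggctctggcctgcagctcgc
CDC6 (chr17:40287629-40287928, + strand): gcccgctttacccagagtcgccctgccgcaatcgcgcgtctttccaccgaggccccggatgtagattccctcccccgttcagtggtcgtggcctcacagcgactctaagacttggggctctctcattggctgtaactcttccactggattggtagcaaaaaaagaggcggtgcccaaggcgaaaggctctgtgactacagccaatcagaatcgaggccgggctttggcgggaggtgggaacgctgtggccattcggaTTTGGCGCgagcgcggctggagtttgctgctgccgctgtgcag
MCM6 (chr2:135876394-135876693, - strand): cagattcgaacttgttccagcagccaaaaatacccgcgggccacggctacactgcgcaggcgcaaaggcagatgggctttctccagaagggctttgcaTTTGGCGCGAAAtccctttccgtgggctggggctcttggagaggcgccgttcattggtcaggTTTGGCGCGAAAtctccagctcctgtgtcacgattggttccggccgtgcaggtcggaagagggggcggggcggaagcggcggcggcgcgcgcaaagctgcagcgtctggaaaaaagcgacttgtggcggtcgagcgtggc
RFC1 (chr4:39366313-39366612, - strand): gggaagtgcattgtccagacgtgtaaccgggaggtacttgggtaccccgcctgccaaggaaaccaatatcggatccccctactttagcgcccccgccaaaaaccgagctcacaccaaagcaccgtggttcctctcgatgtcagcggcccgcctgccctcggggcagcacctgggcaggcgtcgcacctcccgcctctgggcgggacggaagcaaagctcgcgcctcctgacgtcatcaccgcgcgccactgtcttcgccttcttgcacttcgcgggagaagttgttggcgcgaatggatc

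In the GINS2 window the match began 31 bases before the start, and in that of CDC6 it began at base 8 after it. The MCM6 window holds 2 blocks in which the forward and the reverse form overlap, beginning 152 and 90 bases before the start, so its 4 matches are not separate sites. Such overlapping pairs were also found at MCM2 and TIPIN. The 22 genes with a match in any window had a median log2 fold change of -0.85, and 21 of them fell. ORC3 was the exception. Of the 20 genes whose windows held no match, 15 fell, with a median of -0.41. Among the genes tested that have a promoter window, 33.5% of 674 with a match and 28.4% of 9792 without were called lower. Their medians were -0.046 and -0.0062. Genes without a match included strong fallers such as MCM10 and CDC45, and a missing match says only that these letters were not in the window. The MCM10 window and a CDC45 window do hold TTTGGCGG. It differs from the searched TTTGGCGC only in its last letter and was not itself searched.

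**Figure D2:**
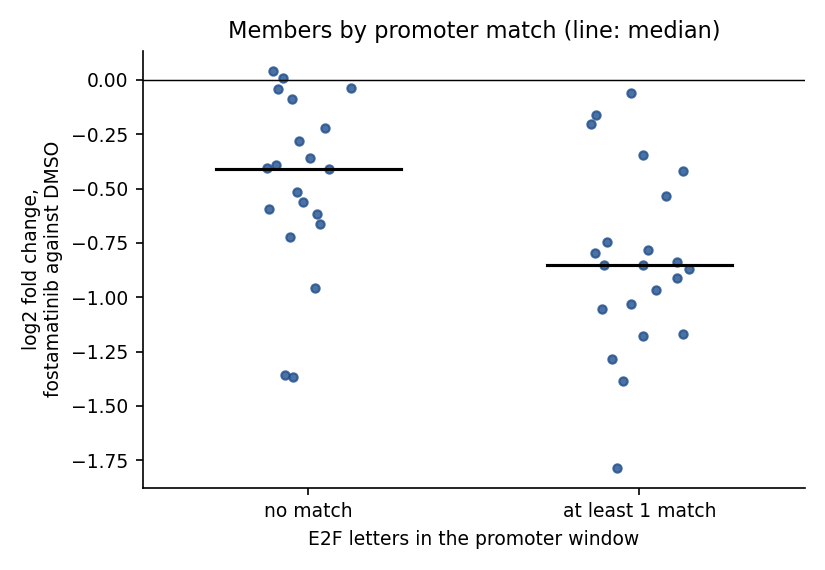
Log2 fold change of the 42 replication genes with a promoter window (y axis, 1 point per gene), split by whether any window holds the E2F letters (x axis); black lines are medians, -0.41 for the 20 genes without and -0.85 for the 22 with a match. The 2 sets overlap over most of their range, and points are spread sideways only so that they can be seen.

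The 6 subunits of the origin recognition complex did not move together. ORC1, ORC5 and ORC6 fell, while ORC2, ORC3 and ORC4 did not pass the test. ORC1, the subunit whose level is cell cycle regulated in human cells, had 482, 590 and 509 reads with DMSO and 329, 342 and 296 with fostamatinib. Its groups did not overlap, with a change of -0.62 on the log2 scale (standard error, SE, 0.072; adjusted p = 5.30e-09). ORC6 and ORC5 fell by 0.41 and 0.39 on the log2 scale (adjusted p = 2.38e-06 and 1.10e-05). For ORC4, reads were 682, 846 and 864 with DMSO and 747, 752 and 807 with fostamatinib, and the groups overlapped. Its log2 fold change was 0.04, with a 95% interval of -0.09 to 0.17. The intervals of ORC2 (-0.16 to 0.08) and ORC3 (-0.17 to 0.05) likewise held 0, and the falls of ORC1, ORC5 and ORC6 lay outside all 3 intervals. Reads of ORC1 per read of ORC4 went from 0.664 ± 0.065 (SD, n = 3) to 0.421 ± 0.047 (SD, n = 3).

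Both factors that bring the helicase to ORC fell, and so did geminin, the inhibitor of CDT1. CDC6, the ATPase that recruits the MCM ring, had 818, 852 and 799 reads with DMSO and 324, 326 and 301 with fostamatinib. The 2 groups were far apart, at 5.82 ± 0.072 and 4.53 ± 0.028 log2 CPM (SD, n = 3 each), and the log2 fold change was -1.29 (SE 0.065, adjusted p = 2.58e-18). CDT1, which escorts the MCM ring to the origin, had 564, 608 and 593 reads with DMSO and 304, 317 and 298 with fostamatinib. The replicates of CDT1 lay close together, at 5.33 ± 0.022 and 4.48 ± 0.013 log2 CPM (SD, n = 3 each), and its log2 fold change was -0.85 (SE 0.068, adjusted p = 6.02e-13). GMNN had 784, 881 and 845 reads with DMSO and 661, 748 and 646 with fostamatinib, a log2 fold change of -0.20 (SE 0.057, adjusted p = 3.44e-03). Its groups did not overlap once scaled to library size. Per read of GMNN there were 0.704 ± 0.015 reads of CDT1 with DMSO and 0.448 ± 0.021 with fostamatinib (SD, n = 3 each), and 0.985 ± 0.051 and 0.464 ± 0.027 reads of CDC6.

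All 6 subunits of the MCM2-MCM7 ring, the core of the replicative helicase, fell, with log2 fold changes from -1.55 to -0.84 and a median of -1.11. This median was the lowest of the 12 groups of genes. Summed over the 6 genes, the level was 891, 885 and 863 CPM with DMSO and 437, 426 and 417 CPM with fostamatinib, 48.5% of the DMSO mean. MCM5, which forms the gate of the ring with MCM2, had the largest fall, with 739, 863 and 757 reads against 275, 246 and 235 (log2 fold change -1.55, standard error 0.071, adjusted p = 2.32e-19). MCM6 had 1699, 1897 and 1853 reads with DMSO and 663, 678 and 619 with fostamatinib (-1.39, standard error 0.049, adjusted p = 1.57e-22). The DMSO replicates of MCM6 were almost equal after scaling, at 6.96 ± 0.0084 log2 CPM (SD, n = 3).

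MCM2, the gate partner of MCM5, had 1541, 1762 and 1520 reads with DMSO and 685, 699 and 629 with fostamatinib (log2 fold change -1.17, adjusted p = 1.85e-19). MCM4, on chromosome 8, had 2088, 2241 and 2318 reads against 1037, 1058 and 908 (-1.06, adjusted p = 1.76e-19). MCM3 had 2079, 2306 and 2144 reads against 1077, 1059 and 1006 (-0.97, adjusted p = 7.24e-19). In each of the 3 genes all fostamatinib samples lay below all DMSO samples. MCM7, the least lowered of the ring, had 4132, 4435 and 4238 reads against 2271, 2333 and 2126 (-0.84, standard error 0.039, adjusted p = 3.90e-19). In MCM7, 7.90% of the exon length lies under exons of AP4M1 on the opposite strand, and the library kit keeps strand but the strand setting of the counting is not stated.

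The ring needs its subunits in equal numbers as proteins, and the transcripts were not equal. Transcript levels do not give the numbers of the proteins, which were not measured in these samples. Divided by the length of the canonical transcript, the level of MCM7 was 118 RPKM (CPM per kilobase of transcript) with DMSO and that of MCM5 15.5, a ratio of 7.62. With fostamatinib the levels were 66.1 and 5.30 RPKM, a ratio of 12.5. With the summed length of all annotated exons in place of the canonical transcript the ratios were 7.96 and 13.0. The other 4 subunits lay between them, with DMSO levels of 32.0 RPKM for MCM2, 33.1 for MCM6, 37.3 for MCM4 and 48.5 for MCM3. Reads of MCM5 per read of MCM7, which need no length, went from 0.184 ± 0.0092 to 0.112 ± 0.0080 (SD, n = 3 each).

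**Figure D3:**
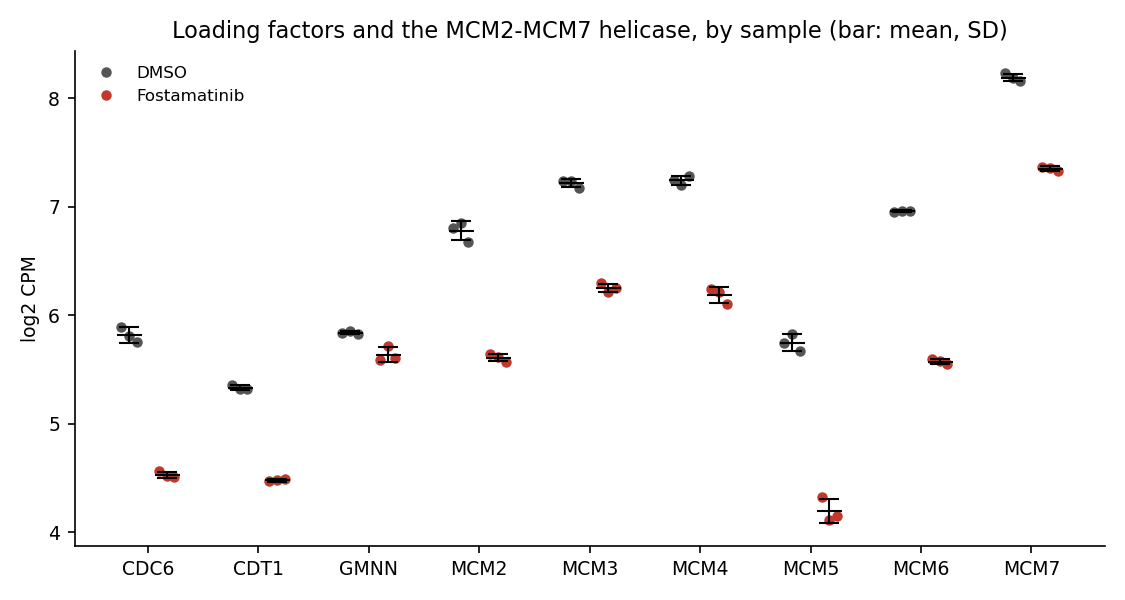
Level in log2 CPM (y axis) of CDC6, CDT1, GMNN and MCM2 to MCM7 (x axis) in each of the 3 DMSO samples (grey) and the 3 fostamatinib samples (red), with bars for the mean and SD. In all 9 genes the red points lie below the grey ones, and the difference of the means is smallest for GMNN and largest for MCM5.

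MCM10, which acts when the CMG helicase starts to unwind, fell with the ring. It had 774, 853 and 834 reads with DMSO and 322, 314 and 263 with fostamatinib, a log2 fold change of -1.37 (SE 0.068, adjusted p = 1.83e-18). MCM8, a relative of the ring subunits that works in recombination rather than at origins, had 885, 1037 and 1092 reads against 514, 571 and 557 (-0.78, standard error 0.061, adjusted p = 3.77e-13). Of the 50-base windows of MCM8 transcripts, 32.6% also occur in other annotated genes, foremost ENSG00000286235. That entry is not among the listed genes, and whether the shared windows lie at the same genomic position was not checked. Whether reads of MCM8 were affected is not known.

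CDC45 and the 4 GINS genes, which complete the CMG helicase, all fell, but by unequal amounts. GINS2 had the largest fall of the 48 genes, with 237, 348 and 318 reads with DMSO and 80, 83 and 79 with fostamatinib. The fostamatinib samples were alike and the DMSO samples less so, at 2.56 ± 0.020 and 4.35 ± 0.21 log2 CPM (SD, n = 3 each), and the log2 fold change was -1.79 (SE 0.11, adjusted p = 1.16e-15), or 29.0% of the DMSO level. CDC45 had 527, 555 and 590 reads against 221, 196 and 196 (-1.36, standard error 0.078, adjusted p = 1.12e-16). GINS4 fell least, from 437, 510 and 490 reads to 342, 338 and 317 (-0.44, adjusted p = 2.63e-06). Between them lay GINS3 (-0.87) and GINS1 (-0.75). The fall of GINS3 is the least precise of the group, since its fostamatinib samples had 74, 66 and 43 reads, and its 95% interval ran from -1.19 to -0.55. Although GINS2 and GINS4 sit in the same 4-part complex, reads of GINS2 per read of GINS4 went from 0.625 ± 0.073 to 0.243 ± 0.0080 (SD, n = 3 each).

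The kinase that triggers firing fell by less, and its subunits moved alike. CDC7, the catalytic subunit, had 274, 302 and 311 reads with DMSO and 196, 236 and 193 with fostamatinib (log2 fold change -0.42, standard error 0.088, adjusted p = 1.37e-04). DBF4, the activator, had 497, 499 and 593 reads against 407, 403 and 354 (-0.36, standard error 0.073, adjusted p = 1.03e-04), although 14.8% of its 50-base windows also occur in other genes, foremost the pseudogene DBF4P1. Reads of CDC7 per read of DBF4 were 0.560 ± 0.041 with DMSO and 0.537 ± 0.052 with fostamatinib (SD, n = 3 each), and these ranges overlapped.

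PCNA, the sliding clamp that tethers polymerases to DNA, had 1848, 2037 and 2179 reads with DMSO and 852, 852 and 811 with fostamatinib. It fell by 1.18 in log2 units (SE 0.049; adjusted p = 1.68e-20), with no overlap between groups. Its loader did not follow as a whole. The small subunits RFC3, RFC2, RFC4 and RFC5 fell by 0.80, 0.59, 0.52 and 0.28 (adjusted p = 5.05e-13, 1.09e-08, 5.11e-09 and 1.14e-03). RFC1, the large subunit specific to the PCNA loader, had 975, 987 and 948 reads with DMSO and 874, 973 and 911 with fostamatinib. Its groups overlapped, and the log2 fold change was 0.01 with a 95% interval of -0.10 to 0.12. Reads of PCNA per read of RFC1 went from 2.09 ± 0.20 to 0.914 ± 0.054 (SD, n = 3 each).

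In the polymerase alpha and primase complex all 4 genes fell. PRIM1, the catalytic primase subunit, had 309, 325 and 380 reads with DMSO and 170, 180 and 141 with fostamatinib (log2 fold change -0.96, standard error 0.094, adjusted p = 1.21e-10). POLA1, the catalytic polymerase subunit, fell by 0.85 and POLA2 by 0.53 (adjusted p = 5.03e-14 and 5.61e-06). PRIM2, the large primase subunit, had 301, 361 and 417 reads against 313, 273 and 279 (-0.22, standard error 0.087, adjusted p = 0.0368), with overlapping groups. Without DMSO replicate 3, the sample with 417 reads, the log2 fold change of PRIM2 was -0.12 and it did not pass the test (adjusted p = 0.280). The call was also lost without fostamatinib replicate 2 (-0.16, adjusted p = 0.209) and without fostamatinib replicate 3 (-0.22, adjusted p = 0.0776). Of the 50-base windows, 16.8% of those of POLA2, 12.5% of those of PRIM2 and 12.2% of those of PRIM1 occur in other annotated genes. In each case the gene that shares the most windows is not among the listed genes. Genomic positions were not compared, so whether reads were affected is not known.

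Among the polymerases that extend the strands, all 5 genes fell. POLE2, the second subunit of polymerase epsilon, had 158, 137 and 156 reads with DMSO and 66, 71 and 66 with fostamatinib (log2 fold change -1.05, standard error 0.13, adjusted p = 2.46e-08). POLE, the catalytic subunit, had 897, 938 and 961 reads against 691, 710 and 667 (-0.35, standard error 0.055, adjusted p = 2.05e-06). Reads of POLE2 per read of POLE went from 0.162 ± 0.015 to 0.0982 ± 0.0023 (SD, n = 3 each). In polymerase delta, the accessory subunits POLD3 and POLD2 fell by 0.79 and 0.72 and the catalytic subunit POLD1 by 0.41 (adjusted p = 1.62e-10, 8.08e-14 and 1.31e-06).

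FEN1, the nuclease that trims the flaps of lagging strand pieces, had 2705, 2873 and 2838 reads with DMSO and 1736, 1773 and 1499 with fostamatinib (log2 fold change -0.66, standard error 0.045, adjusted p = 1.08e-14). LIG1, the ligase that seals the pieces, had 587, 706 and 655 reads against 554, 550 and 531, and fell by 0.16 (SE 0.061, adjusted p = 0.0297). The call of LIG1 was lost without DMSO replicate 2 (-0.13, adjusted p = 0.123), without fostamatinib replicate 2 (-0.14, adjusted p = 0.110) and without fostamatinib replicate 3 (-0.17, adjusted p = 0.0551). Reads of FEN1 per read of LIG1 went from 4.34 ± 0.27 to 3.06 ± 0.21 (SD, n = 3 each).

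RPA, the single-strand binding complex, also serves DNA repair and changed least of the groups. RPA2 had 629, 684 and 659 reads with DMSO and 536, 531 and 573 with fostamatinib, a fall of 0.18 on the log2 scale (SE 0.063, adjusted p = 0.0203). Its call was lost without DMSO replicate 1 (adjusted p = 0.0689), without fostamatinib replicate 1 (0.0694) and without fostamatinib replicate 2 (0.145). RPA3 had 357, 368 and 434 reads against 390, 390 and 349, with a log2 fold change of 0.05 and a 95% interval of -0.10 to 0.21. RPA1, the large subunit, had a log2 fold change of -0.04, with an interval of -0.14 to 0.05. Falls of the size found for the MCM ring lay outside the intervals of all 3 genes.

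Of the genes that protect and stabilize the fork, TIPIN, CLSPN and WDHD1 fell and TIMELESS did not pass the test. TIPIN had 330, 370 and 342 reads with DMSO and 172, 167 and 141 with fostamatinib (log2 fold change -1.03, standard error 0.089, adjusted p = 5.74e-12). CLSPN, the adaptor that lets ATR activate CHK1, fell by 0.91, and WDHD1, which links the helicase to polymerase alpha, by 0.56 (adjusted p = 6.17e-13 and 5.54e-09). TIMELESS, the obligate partner of TIPIN, had 1590, 1772 and 1844 reads against 1508, 1607 and 1491. After scaling, its 3 fostamatinib samples lay below the 3 DMSO samples by a narrow margin, with a log2 fold change of -0.09 and a 95% interval of -0.18 to 0.01 (adjusted p = 0.125). Reads of TIPIN per read of TIMELESS went from 0.201 ± 0.013 to 0.104 ± 0.0097 (SD, n = 3 each). Of the 50-base windows of TIPIN, 20.4% occur in other annotated genes, foremost RPL9P25, which is not among the listed genes.

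Apart from CDT1 with GMNN, each pair of partners compared here held the genes with the largest and the smallest fall of a group. A lower ratio with fostamatinib follows from that choice. CDT1 with GMNN was added after their values were seen, and GMNN had the smallest fall of its group. The ratios are a description of RNA with no test, and say nothing of protein amounts. The DMSO level in log2 CPM and the log2 fold change showed little relation (Pearson r = -0.030 and Spearman rho = -0.038 across the 48 genes, which share the same 6 libraries and are not independent).

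**Figure D4:**
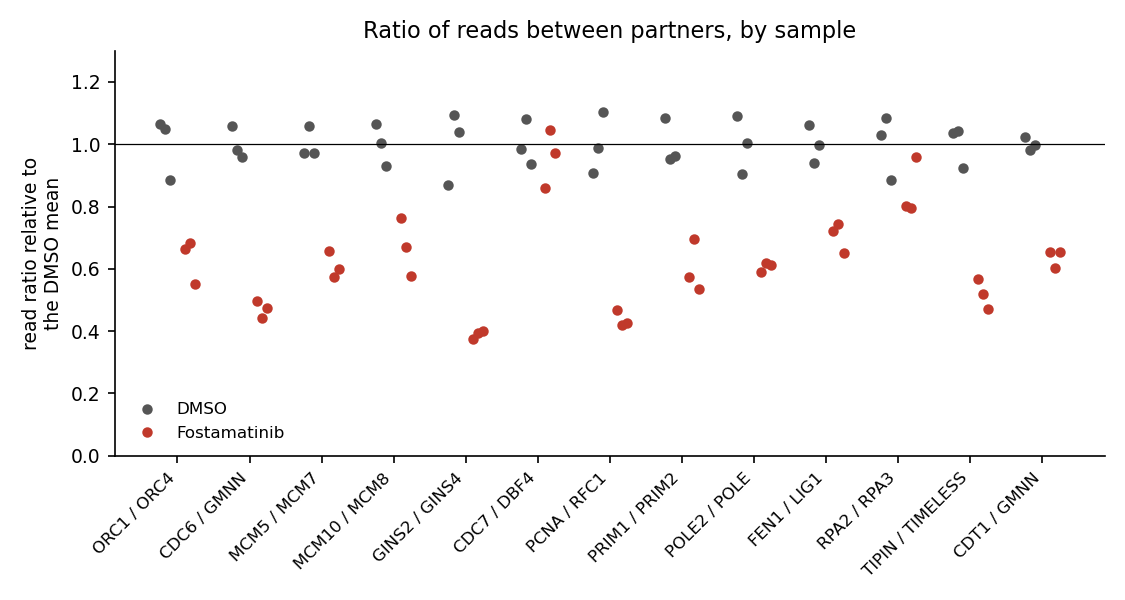
Reads of the first gene per read of the second (y axis, relative to the mean of the DMSO samples) for the genes with the largest and smallest fall of each group and for CDT1 with GMNN (x axis), in the 3 DMSO samples (grey) and the 3 fostamatinib samples (red). The red points lie below the grey ones except for CDC7 / DBF4 and RPA2 / RPA3, where they overlap, and GINS2 / GINS4 is lowest. The pairs were chosen from these same values, except CDT1 with GMNN, a factor and its inhibitor, which was added after their values were seen.

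Other genes of replication moved the same way on the whole. Of 39 further genes tested (origin firing, chromatin assembly, alternative clamp loaders, RNase H2, topoisomerases and S phase checkpoint), 27 fell and 2 rose. Those shares were 69.2% and 5.13%, against 24.5% called lower and 23.3% higher over all genes. The median log2 fold change was -0.38. The largest falls were those of DTL, the receptor of the ubiquitin ligase that destroys CDT1 in S phase, by 1.73 (adjusted p = 1.47e-18), and of DSCC1, a subunit of an alternative clamp loader, by 1.23 (adjusted p = 4.21e-13). The 2 that rose were POLD4, the smallest subunit of polymerase delta, by 0.49 (adjusted p = 6.67e-08), and TOP2A, the topoisomerase that peaks in G2 and M, by 0.10 (adjusted p = 0.0174). The groups of TOP2A overlapped.

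A list of 20 genes held E2F factors and their DP partners, pocket proteins, LIN subunits of the MuvB core complex, cyclin E and CDK2. These regulate or act upstream of replication genes. Of the 20, 15 fell (75%) and 1 rose (5%), against 24.5% called lower and 23.3% higher over all genes. The median log2 fold change was -0.38. E2F2 and CCNE2 had the largest falls, with log2 fold changes of -1.91 and -1.77 (adjusted p = 1.32e-11 and 6.61e-14), and E2F1, an activator of replication genes, had 616, 685 and 637 reads with DMSO and 216, 225 and 217 with fostamatinib (-1.47, adjusted p = 1.05e-18). RBL2, the pocket protein p130 of resting cells, was the gene that rose, by 0.51 (adjusted p = 7.32e-10).

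Mitotic genes did not share the fall. Of 20 tested, 11 rose and 4 fell, with a median log2 fold change of 0.14. The share that rose was 55%, against 23.3% over all genes, and the share that fell was 20%, near the 24.5% over all genes. CENPE, a kinetochore motor, and AURKA, a mitotic kinase, rose by 0.81 and 0.77 (adjusted p = 1.91e-06 and 1.40e-18), although the fostamatinib samples of CENPE were uneven, with 360, 438 and 694 reads. The largest falls were those of CDK1, by 0.19, and CCNA2, by 0.17 (adjusted p = 9.79e-04 and 3.54e-03). MKI67, a marker of cycling cells, had 6170, 6976 and 6749 reads with DMSO and 6285, 6629 and 6288 with fostamatinib, with overlapping groups and a log2 fold change of 0.04 (adjusted p = 0.373). Whether the lists differ from each other was not tested.

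**Figure D5:**
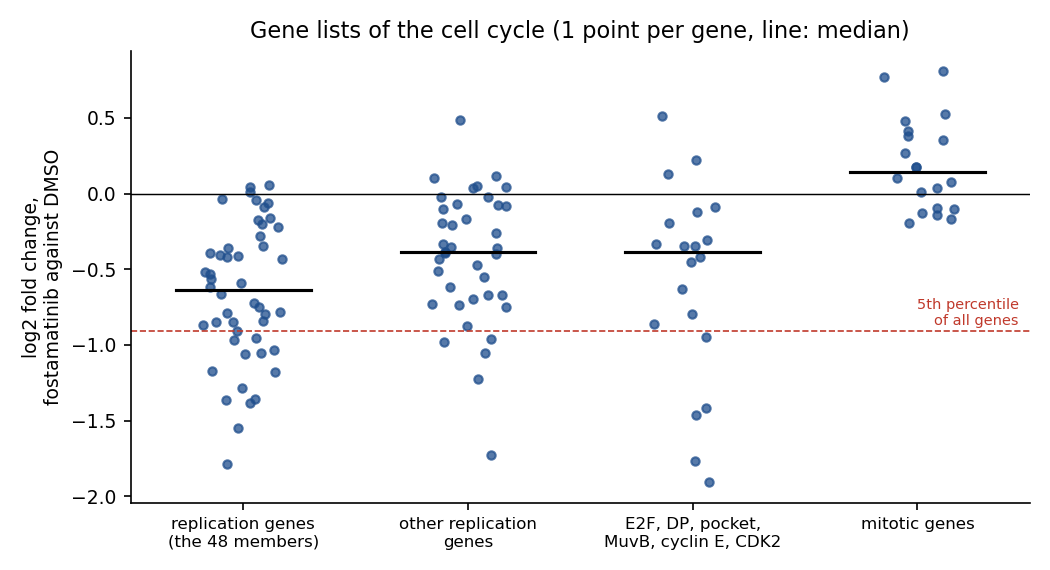
Log2 fold change between fostamatinib and DMSO samples (y axis) for the 48 replication genes, 39 other replication genes, 20 genes of the E2F, DP, pocket protein, MuvB, cyclin E and CDK2 list and 20 mitotic genes (x axis, 1 point per gene, spread sideways only so that points can be seen). Black lines are the medians (-0.64, -0.38, -0.38 and 0.14), and the dashed line is the 5th percentile of all 16305 genes (-0.91), below which 14 of the 48 replication genes lie.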

How the data were processed

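RNA-Seq reads of 3 DMSO-treated and 3 fostamatinib-treated samples were mapped by the authors to hg19 with HISAT and counted with featureCounts on GENCODE v22; tool versions are not given in the sources used here. The deposited values are log2 CPM per gene, computed by the authors as log2 of the count plus 0.5 over the TMM-scaled library size, after a filter that dropped genes whose count was below 5 in 2 or 3 replicates of both groups. Every value turned back into a whole number of reads within 0.05. One gene listed 7 times with equal values was used once.

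Groups and replicate numbers came from the sample titles. The fit used limma 3.58.1 in R 4.3.3 (lmFit, eBayes with a mean-variance trend) on all 16305 genes, and genes with a Benjamini-Hochberg adjusted p-value under 0.05 were called. This test borrows the spread of other genes (median 33.9 total against 4 residual degrees of freedom), which makes adjusted p-values of single genes very small; an exact permutation test of 3 against 3 cannot go below 0.10. The script was tested on simulated data. Genes named are the 48 members, the largest changes of 3 further lists, and markers; MKI67, E2F1 and partner pairs were added after their values were seen. The members and lists were chosen with earlier results of these data known. Lengths, overlaps and shared windows are from GENCODE v44 mapped to GRCh37 (the build of hg19), promoters from RefSeq on GRCh38.p14. Alternatives were limma-voom on the recovered reads, no trend, median-ratio (RLE) scaling, library size alone, filters of 10 reads in every sample or passed in both groups, a replicate block, an adjusted p-value under 0.01, and the omission of each sample.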

Additional observations from a re-analysis of the deposited data

How the results depend on the processing

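The count of 41 replication genes lower and 0 higher was the same with limma-voom on the recovered reads, RLE scaling, library size alone, either filter on low counts, and the replicate number as a block. Without the mean-variance trend 38 genes were called lower, the calls of PRIM2, LIG1 and RPA2 being lost (adjusted p = 0.197, 0.0580 and 0.0938), and 38 were called lower at an adjusted p-value under 0.01. When each sample was left out in turn, 38 to 40 genes were called lower and 0 higher. No log2 fold change of a called gene changed sign under these alternatives. Of the medians of the gene groups under these alternatives, 4 moved by at least the SD between samples and 152 did not. Among those that moved, the median of CDC45 and the GINS genes was -1.02 without fostamatinib replicate 1. It was -0.76 without fostamatinib replicate 3, against -0.87. Both groups number their replicates 1 to 3, but nothing in the labels ties a number to a shared culture or day, and DMSO and fostamatinib samples with equal numbers had residuals around the group averages that correlated at 0.028, -0.019 and 0.013; with the replicate block 41 genes were called lower and 0 higher. The number of samples and the depth both limit the precision of small changes such as those of LIG1, RPA2 and TIMELESS, and their parts were not separated.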

Other observations

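Several replication genes share a start region with a protein-coding gene that runs the other way, and these neighbours were looked up after the values of the replication genes had been seen. With starts at most 1000 bases apart in the GRCh37 annotation, 16 neighbours of 16 replication genes were tested. Of these 16 neighbours 4 fell, 2 rose and 10 did not pass limma's test, against 24.5% of all genes called lower and 23.3% called higher, so the share that fell was near that over all genes. Their median log2 fold change was -0.015, whereas the 16 replication genes beside them had a median of -0.71. Each of the 16 replication genes had the lower fold change of its pair. Among the neighbours not called, LIPT2 beside POLD3 had only 18 to 27 reads per sample and PXMP2 beside POLE 14 to 22. Their standard errors were 0.28 and 0.30, so a moderate fall could be missed. The neighbours that fell were PRKDC beside MCM4, by 0.61 (adjusted p = 2.62e-16), TRMT6 beside MCM8, by 0.66 (adjusted p = 1.34e-10), SOCS4 beside WDHD1, by 0.48 (adjusted p = 9.71e-08), and MAP2K1 beside TIPIN, by 0.30 (adjusted p = 6.02e-07). PRKDC, the catalytic subunit of DNA-dependent protein kinase, has its annotated start 7 bases from that of MCM4, and had 7365, 8390 and 8470 reads with DMSO and 4875, 5113 and 4916 with fostamatinib. At the PCNA locus, CDS2 rose by 0.17 (adjusted p = 3.24e-03) while PCNA fell by 1.18, and at that of MCM2, TPRA1 rose by 0.28 (adjusted p = 2.61e-04) while MCM2 fell by 1.17. UFD1, whose start lies 255 bases from that of CDC45, had a log2 fold change of -0.05 (adjusted p = 0.369) beside -1.36 for CDC45.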
